A study of Mus musculus with 96 samples.

Results

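Among 96 cultured daughter cells of horizontal basal cells (HBCs), a glycolysis score was used to choose 24 cells from its top and 24 from its bottom, and these are referred to as the high and the low cells. HBCs are the reserve stem cells of the olfactory epithelium (OE), the sensory lining of the nose. The groups were thus chosen by measured values. The score of a cell was the mean of log2(CPM+1) of 6 glycolysis genes, Slc16a3, Slc2a1, Ldha, Pgk1, Pfkp and Aldoa, where CPM is a gene's count divided by the sum of the counts on mouse genes in that cell, times 1000000. The 48 cells between the groups are called the middle cells. Because the score and every gene below were read from the same cells, the values of the contrast are a description and no test was made on them.

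All 96 cells came from wild-type mice of 6 to 8 weeks whose OE was taken 2 days after an injection of methimazole, a drug that strips the OE and so activates HBCs. The HBCs were grown in primary culture, per the study's methods on a Tropoelastin coat and then on Fibronectin, a coat on which they divide, and the sister cells of 48 divisions were collected one by one, so that each cell belongs to a numbered pair. No group received another treatment, and the labels tie no cell to a mouse or a dish, so the 96 cells count as 1 sample and a spread between cells is not a spread between animals. PolyA RNA of each cell was captured by the G&T-seq method with ERCC spike-in transcripts added.

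Glycolysis splits glucose into pyruvate in the cytosol, and cells that run it fast turn the pyruvate into lactate and export it. Glucose enters through the transporter Slc2a1 (GLUT1), the phosphofructokinase Pfkp commits it to the pathway, the aldolase Aldoa splits the sugar, the phosphoglycerate kinase Pgk1 makes the first ATP, the lactate dehydrogenase Ldha makes lactate and the transporter Slc16a3 (MCT4) carries lactate out. Most of these genes are known targets of hypoxia-inducible factor (HIF), a pair of a HIF alpha subunit and Arnt that binds the core ACGTG or GCGTG when oxygen is low, while prolyl hydroxylases (the Egln genes) and Vhl mark the alpha subunit for breakdown when oxygen is present. In stratified epithelia, glycolysis genes are also known to be active in proliferating and in wounded basal cells.

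The 160 bases before the RefSeq start of each score gene are shown first, since these genes define the groups, with those of Bnip3 and Car9, known HIF targets that were both called higher below. They were read from RefSeq promoters of build GRCm38.p6, 5' to 3' on the strand of the gene, and capitals mark ACGTG or GCGTG, the HIF core, which reads CACGT or CACGC where it lies on the other strand. Of several RefSeq starts, the first listed was used for Ldha and the second for Aldoa, whose first window holds no match.
Slc16a3, chr11:120948907-120949066, plus strand: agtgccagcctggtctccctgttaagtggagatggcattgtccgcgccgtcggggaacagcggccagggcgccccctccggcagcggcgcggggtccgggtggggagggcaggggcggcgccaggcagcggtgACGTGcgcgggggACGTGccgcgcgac
Slc2a1, chr4:119108585-119108744, plus strand: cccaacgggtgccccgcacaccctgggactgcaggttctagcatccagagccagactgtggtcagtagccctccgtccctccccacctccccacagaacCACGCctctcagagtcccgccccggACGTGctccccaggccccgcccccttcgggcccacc
Ldha, chr7:46845644-46845803, plus strand: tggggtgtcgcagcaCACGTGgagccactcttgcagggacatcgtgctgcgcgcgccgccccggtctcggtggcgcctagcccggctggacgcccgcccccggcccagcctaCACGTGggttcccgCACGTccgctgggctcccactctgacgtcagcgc
Pgk1, chrX:106186940-106187099, plus strand: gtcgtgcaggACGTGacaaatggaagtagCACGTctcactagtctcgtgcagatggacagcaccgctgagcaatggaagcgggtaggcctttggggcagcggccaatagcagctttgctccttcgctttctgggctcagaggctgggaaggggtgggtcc
Pfkp, chr13:6648772-6648931, minus strand: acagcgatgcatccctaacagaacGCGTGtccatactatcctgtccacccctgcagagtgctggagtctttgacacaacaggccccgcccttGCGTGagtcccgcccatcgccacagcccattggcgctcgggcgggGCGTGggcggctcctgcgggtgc
Aldoa, chr7:126799255-126799414, minus strand: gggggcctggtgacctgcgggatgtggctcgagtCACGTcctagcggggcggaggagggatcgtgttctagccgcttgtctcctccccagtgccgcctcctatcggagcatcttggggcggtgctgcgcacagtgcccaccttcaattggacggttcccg
Bnip3, chr7:138909507-138909666, minus strand: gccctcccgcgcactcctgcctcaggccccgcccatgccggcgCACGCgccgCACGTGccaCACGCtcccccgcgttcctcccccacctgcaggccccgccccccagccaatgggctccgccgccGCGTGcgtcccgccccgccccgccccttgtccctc
Car9, chr4:43506866-43507025, plus strand: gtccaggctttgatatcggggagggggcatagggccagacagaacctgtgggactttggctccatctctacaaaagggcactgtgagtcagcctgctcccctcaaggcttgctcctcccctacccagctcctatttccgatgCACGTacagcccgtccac

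Slc16a3 carried 2 matches of ACGTG at 27 and 14 bases before the start, Pgk1 carried 2 further upstream, and Pfkp carried only GCGTG, 3 times in the stretch shown. The letters CACGTG read the same on both strands and count once for each strand, so the 5 matches in the Ldha stretch lie at 3 places. Over the full window of 250 bases before to 50 after a start, ACGTG was found in 5 of 6 score genes, in 12 of 18 other HIF targets with an entry and in 10 of 18 other glycolysis genes with an entry. In comparison, 29.8% of the 9677 tested genes with an entry held it, 32.2% of those called higher below, 22.5% of those called lower and 19.6% of all 32851 windows of that length. A gene with several starts counted if any of its windows held a match. The share of windows counts each window singly, so it is not a like measure. GCGTG was in 57.1% of the tested genes with an entry, 59.0% of those called higher and 48.75% of those called lower. It was in 3 of 6 score genes, 14 of 18 other HIF targets and 13 of 18 other glycolysis genes with an entry. Such a match is a run of letters and was not read as a bound site. Ndrg1, the HIF target of largest difference, has no entry.

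The score ran from 9.81 to 10.73 in the high cells with a median of 10.01, from 8.42 to 9.80 in the middle cells and from 6.60 to 8.40 in the low cells with a median of 7.86. The borders of the groups were set by rank and not by a gap in score. The cell of rank 24, 25-1, had 9.81 and the cell of rank 25, 15-1, had 9.80, and at the other border the cell of rank 72, 43-2, had 8.42 and that of rank 73, 42-1, had 8.40.

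**Figure D1:**
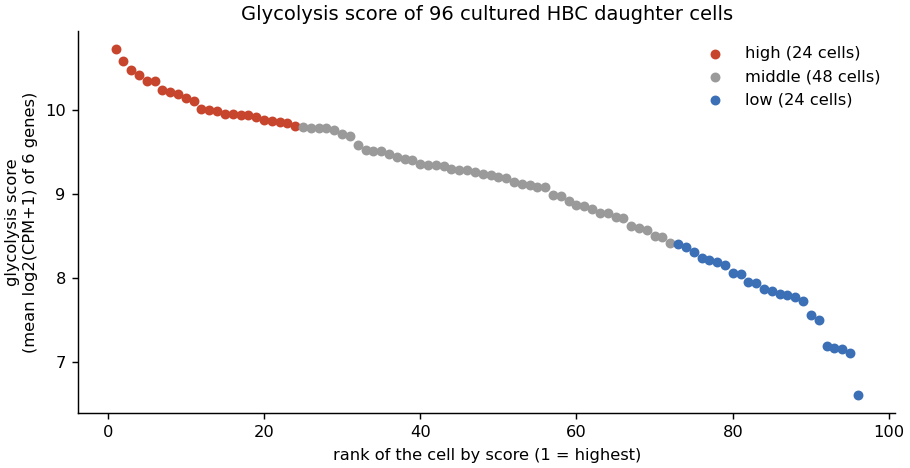
Each point is 1 of the 96 cells, placed by its rank (x axis) and its glycolysis score in mean log2(CPM+1) of 6 genes (y axis), in red for the 24 high, grey for the 48 middle and blue for the 24 low cells. Scores run without a gap from 10.73 down to 8.40 at the border of the low cells, and the lowest cell stands at 6.60.

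Counts on mouse genes ranged from 33309765 to 43651021 in the high and from 29454150 to 41081195 in the low cells, and 1 CPM stood for 29.4 to 44.9 counts over the 96 cells. ERCC transcripts took a median of 2.83% of counts in the high and 3.77% in the low cells, and the ratio of gene to ERCC counts had a median of 34.3 in the high and 25.5 in the low cells. A median of 13022 genes was detected in the high and 12625 in the low cells. The part of RNA content or depth in the differences below was not tested. Trp63 and the keratins Krt5 and Krt14, which define HBCs, were counted in all 96 cells. Of 24 markers of other cell types only 2 passed the count filter, and their summed level ranged from 0.0540 to 44.5 CPM in the high cells (median 12.6), with 13 of the 24 at 0 throughout, and from 0.151 to 287 CPM in the low cells (median 4.07), with 12 at 0. The macrophage marker Cd68 made up nearly all of the highest sum, at 287 CPM in 1 low cell, and the part of other cells in the differences was not tested.

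Slc16a3, the lactate exporter, set the score more than any other gene. It was measured at 79.7 to 1145 CPM in the high cells (median 424) and at 0 to 51.0 CPM in the low cells (median 0.563), so that all 24 high cells lay above all 24 low cells. The difference of mean log2(CPM+1), high minus low, was 7.33, with a standard deviation (SD) over 24 cells of 1.14 in the high and 1.37 in the low group, and it made up 52.4% of the summed difference of the 6 genes. In bins that were set after the values were seen, Slc16a3 was under 1 CPM in 21 cells, of which 18 were low, 3 middle and none high, between 1 and 10 CPM in 9 cells, between 10 and 100 CPM in 22, and at 100 CPM or more in 44 cells, of which 21 were high and 23 middle. The gene lies at chr11:120948480-120960868 of GRCm38 on the plus strand.

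Pfkp, the platelet-type phosphofructokinase at chr13:6579768-6648777 on the minus strand, gave the next largest share, 19.6%. It ranged from 112 to 586 CPM in the high cells (median 285) and from 0.664 to 182 CPM in the low cells (median 86.0), and 22 of 24 high cells exceeded every low cell. The difference of 2.73 was wider than the distance of the medians because 4 low cells and no high or middle cell had Pfkp under 2 CPM. Slc2a1, the main glucose transporter of epithelia, at chr4:119108711-119137983 on the plus strand, ranged from 240 to 1823 CPM in the high cells (median 982) and from 38.6 to 660 CPM in the low cells (median 281). It differed by 1.79, and 20 of 24 high cells exceeded every low cell.

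The other 3 enzymes differed less on the log scale, though each by more than the SD of either group. Ldha, at chr7:46841475-46855627 on the plus strand, stood at 4955 to 8113 CPM in the high cells (median 6244) against 2015 to 5772 CPM in the low cells (median 3856), a difference of 0.76. Pgk1, at chrX:106187100-106203699 on the plus strand, stood at 750 to 1366 CPM (median 946) against 183 to 887 CPM (median 622), a difference of 0.79. Aldoa, at chr7:126795234-126800751 on the minus strand, stood at 2122 to 4523 CPM (median 3365) against 1061 to 5505 CPM (median 2312), a difference of 0.57, and here the groups overlapped in full, since the single highest cell of both groups was a low one. Only 3 of the 6 score genes, Slc16a3, Pfkp and Slc2a1, thus reached the size of 1 on the log2 scale that is used below for a call. On the deposited TPM scale, which accounts for gene length, the median level in the high cells was 7238 TPM for Ldha and 201 TPM for Slc16a3, so that per length Slc16a3, with the largest difference, was far less abundant than Ldha. Ldha and Pgk1 have near-identical processed copies in the mouse genome, among which reads can be split, so their levels are uncertain to that extent.

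**Figure D2:**
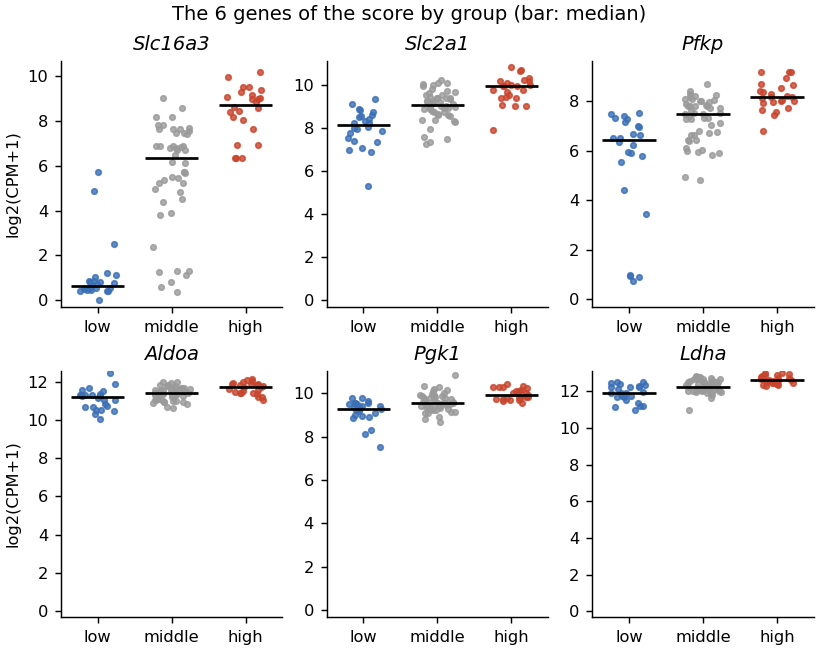
Levels in log2(CPM+1) (y axis) of the 6 score genes in the 24 low, 48 middle and 24 high cells (x axis), 1 point per cell, with a bar at the median. Slc16a3 spreads over the whole range from 0 CPM to 1145 CPM, whereas Ldha lies between 1986 and 8113 CPM in every cell.

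The 6 genes went together across the 96 cells, though each relation was moderate. Spearman's rho of a score gene with the mean of the other 5 lay between 0.44 for Aldoa and 0.59 for Pgk1 over 96 cells, which share a division in pairs and a denominator of CPM. When a gene was left out of the score and the groups were drawn anew on the other 5, it still differed in the same direction: Slc16a3 by 4.85, Pfkp by 2.45, Slc2a1 by 1.30, Pgk1 by 0.73, Ldha by 0.70 and Aldoa by 0.56 on the log2(CPM+1) scale. Without Slc16a3 in the score, 19 of the 24 high and 18 of the 24 low cells were the same cells.

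Across all 14463 genes that passed the filter of at least 10 counts in 10% of the cells, 973 were higher in the high cells by 1 or more, which is 6.73%, and 299 were lower by 1 or more, which is 2.07%. These shares are the background for the counts of list members below, where a gene past that size is said to be called, but as the score is part of this contrast nothing is read from a count of members against them. The median difference of all tested genes was 0.05, and 90% of the genes lay between -0.72 and 1.13. Mean log2 values also rest on cells in which a gene is at or near 0, so the median levels are given beside each difference.

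Among the other glycolysis genes, 20 of 22 were tested, 5 were called higher, none lower, and the median difference was 0.63. Tpi1, the triosephosphate isomerase, ranged from 1230.0 to 4197 CPM in the high cells (median 2248) and from 538 to 2092 CPM in the low cells (median 1058), and 16 of 24 high cells exceeded all low cells (difference 1.14). Gpi1, the glucose-6-phosphate isomerase, had medians of 1134 and 588 CPM (difference 1.13), and each high cell was above the median of the low cells. Gapdh (0.50), Pgam1 (0.95), Eno1 (0.91) and Pkm (0.57), which carry sugar phosphates down to pyruvate, fell short of a call, yet all 24 high cells were above the low-cell median for the first 3 and 21 of 24 for Pkm. Gapdh has many processed copies in the genome, and Eno1 shares most of its sequence with Eno1b (0.71), so their split is uncertain.

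The largest differences in this list belonged to regulators and isoforms. Pfkfb3, which makes the activator of phosphofructokinase, was measured at 0.344 to 367 CPM in the high cells (median 121) and at 0 to 68.0 CPM in the low cells (median 28.4), a difference of 2.81, and 16 high cells exceeded all low cells. Its relatives Pfkfb2 (0.28), Pfkfb4 (-0.23) and Pfkfb1 (-0.31) were low in level and differed little. Aldoc, the aldolase isoform best known from brain, was under 2 CPM in 19 low, 30 middle and 8 high cells, with a median of 29.5 CPM in the high cells and a difference of 2.33. Of the phosphofructokinases, Pfkl differed by 1.45 with medians of 544 and 255 CPM, while Pfkm, the muscle form, was under 2 CPM in 14 high, 32 middle and 10 low cells and differed by -0.88.

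The hexokinases, which trap glucose in the cell, Hk1 (0.77) and Hk2 (0.63) overlapped widely between the groups, with Hk2 at 152 to 866 CPM in the high and 44.1 to 806 CPM in the low cells. Slc16a1 (MCT1), which moves lactate in both directions, had medians of 113 CPM in the high and 104 CPM in the low cells and a difference of 0.62, where Slc16a3 had 424 and 0.563 CPM. Bsg, the chaperone of both lactate transporters, had medians of 754 and 688 CPM and a difference of 0.10. Ldhb, the lactate dehydrogenase subunit that favours pyruvate, had a median of 32.1 CPM in the high and 69.0 CPM in the low cells with full overlap (-0.37). Slc2a3 and Eno2, the neuronal glucose transporter and enolase, were not tested, as they were at 0 in nearly every cell.

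Hif1a, the HIF-1 alpha subunit, ranged from 154 to 755 CPM in the high cells (median 288) and from 68.5 to 835 CPM in the low cells (median 250.3), and the difference of 0.23 was below the SD of 0.58 in the high and 0.78 in the low cells. Its partner Arnt had medians of 15.8 and 6.98 CPM (0.51), and Vhl had 14.9 and 10.7 CPM (0.02). Of 9 tested components 1 was called higher and 1 lower. The higher one was Egln3, a prolyl hydroxylase that is itself a HIF target, with 32.9 to 339 CPM in the high cells (median 102) and 0.514 to 413 CPM in the low cells (median 42.1), a difference of 1.83. The lower one was Epas1, the HIF-2 alpha subunit, with medians of 49.8 CPM in the high and 106 CPM in the low cells, a difference of -1.67, and with 5 high cells but 1 low cell under 2 CPM. Protein levels and oxygen were not measured in these files.

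Known targets of HIF outside glycolysis and the squamous genes described further on had the highest median differences of the lists outside the score, and which of them was higher depended on the scaling. Of 24 tested members of 25, 14 were called higher and none lower, 22 were above 0, and the median difference was 1.25. The mean log2(CPM+1) of the list ran from 5.16 to 7.59 in the high cells (median 6.31), from 3.80 to 6.34 in the low cells (median 4.93) and had a median of 5.47 in the middle cells. Over the 96 cells this mean followed the score with a Spearman's rho of 0.71, against 0.42 for the other glycolysis genes, a description across cells that share the CPM denominator.

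Ndrg1, a differentiation-linked gene and a standard hypoxia marker, had the largest difference of the list, 3.86. It ranged from 64.8 to 1245 CPM in the high cells (median 272) and from 0.360 to 688 CPM in the low cells (median 38.2). No high cell but 4 middle and 10 low cells were under 2 CPM, and all 24 high cells were above the low-cell median. Ak4, a mitochondrial adenylate kinase, followed with 0.949 to 216 CPM (median 82.1) against 0 to 81.1 CPM (median 3.99), a difference of 3.22, and 12 high cells exceeded all low cells. Bnip3, a mitophagy receptor whose promoter is shown above, ranged from 51.2 to 561 CPM in the high cells (median 271) and from 0.368 to 163 CPM in the low cells (median 82.3), a difference of 2.90 with 18 of 24 high cells above all low cells.

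Genes with a role in handling acid and pyruvate were among the called ones. Car9, a membrane carbonic anhydrase that keeps the cytosol from turning acid, had medians of 138 CPM in the high and 13.4 CPM in the low cells (difference 2.69), and 11 low against 4 high cells were under 2 CPM. Car12, its relative, differed by 0.93 and was not called. Pdk1, the kinase that shuts pyruvate out of the citric acid cycle, had medians of 53.2 and 19.3 CPM (2.05), and 23 of 24 high cells were above the low-cell median. Fam162a, a mitochondrial hypoxia-response protein, showed one of the cleanest separations with 119.8 to 512 CPM (median 287) against 27.9 to 232 CPM (median 96.2), a difference of 1.49 with 17 high cells above all low cells.

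Secreted and matrix-related targets were also called. The peptide hormone gene Adm had medians of 119 and 46.8 CPM (1.78). The collagen hydroxylases P4ha1 (1.58), Plod2 (1.66) and P4ha2 (1.38) were called, whereas Plod1 (0.51) was not. Not all classical targets took part. Vegfa, the endothelial growth factor that is the textbook HIF target, had medians of 27.5 and 23.4 CPM and differed by 0.22, less than its SD of 1.29 in the high and 1.55 in the low cells. Hmox1 (-0.02) and the cystine carrier Slc7a11 (-0.31), which also answer to oxidative stress, were not higher. Ppp1r3c was at 0 in all 96 cells.

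**Figure D3:**
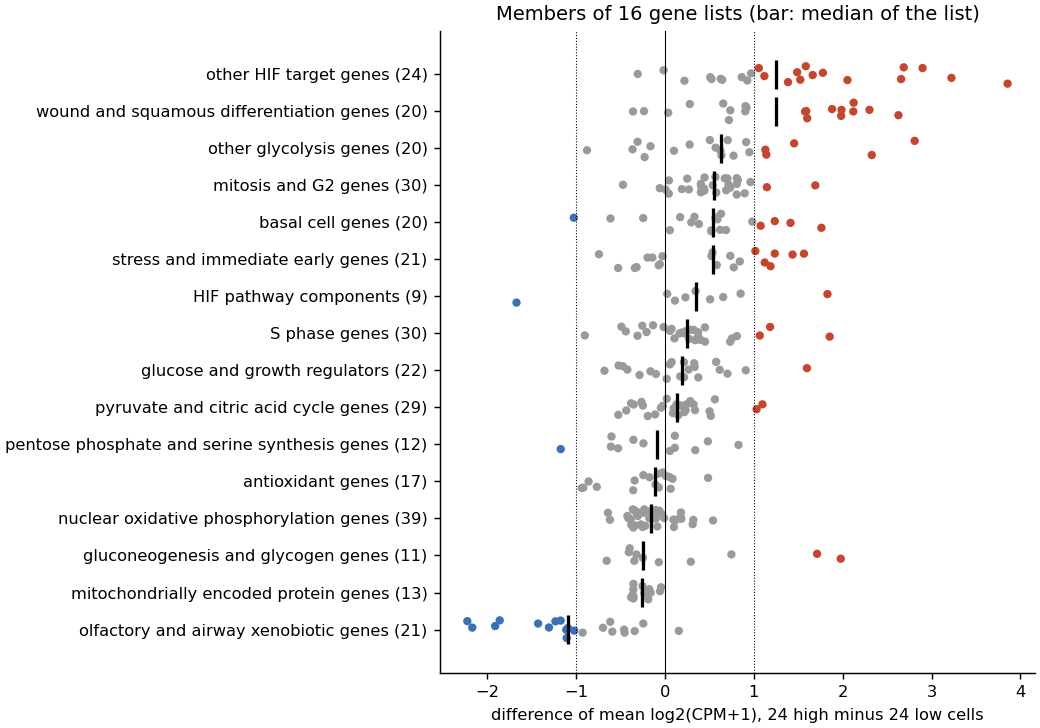
Difference of mean log2(CPM+1), high minus low cells (x axis), for every tested member of 16 gene lists (y axis, number tested in brackets), with a bar at each list's median, red points at 1 or more and blue points at -1 or less. The HIF targets and the squamous genes have medians of 1.25, and the xenobiotic genes have a median of -1.09.

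Genes of mitochondrial respiration were slightly lower by CPM, but not by spike-in scaling. All 13 protein genes of the mitochondrial genome had a difference below 0, with a median of -0.25 and a lowest value of -0.38 for mt-Nd5, which ranged from 739.9 to 1868 CPM in the high cells (median 932) and from 691 to 2262 CPM in the low cells (median 1345). With spike-in size factors in place of CPM, the median of these 13 genes turned to 0.07. Of 39 tested nuclear genes of oxidative phosphorylation none was called, 30 were below 0 and the median was -0.16, which turned to 0.17 with spike-in size factors. Complex I subunits were at both ends, Ndufb10 at -0.64 and Ndufs3 at 0.54. Spike-in scaling moved the median of all tested genes from 0.05 to 0.24, and both list medians lay below that shift. The share of counts on the mitochondrial genome had a median of 1.82% in the high and 2.03% in the low cells.

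In the paths that leave or feed glycolysis, single genes were called, where 6.73% of all tested genes were called higher and 2.07% lower. Of 29 genes of pyruvate entry and the citric acid cycle, 2 were called higher, Dlat, the acetyltransferase of pyruvate dehydrogenase, with medians of 82.0 and 36.4 CPM (1.10), and Pcx, pyruvate carboxylase, with 2.66 and 0.227 CPM (1.03). The value of Pcx changed sign, to -0.19, when the 2 highest and 2 lowest cells of each set of 8 were compared, and to -0.057 with at most 1 cell of a pair in a group. Of 12 genes of the pentose phosphate and serine paths, Rpia, the ribose-5-phosphate isomerase, was called lower with medians of 26.5 and 47.8 CPM (-1.18), while Pgd, which makes NADPH in the same path, differed by 0.83 with 15 high cells above all low cells. The glycogen genes Pgm1 (phosphoglucomutase, medians 159 and 67.4 CPM, 1.98) and Gys1 (glycogen synthase, medians 60.8 and 8.04 CPM, 1.71) were called higher among 11 tested. Of these 11 genes of gluconeogenesis and glycogen, however, 4 were above 0 and 7 below, Pygb (-0.66) among them. The median of that list was -0.25. When each set was left out in turn, the lowest value of Gys1 was 0.84, below a call. Among 22 regulators of glucose use and growth, only Mlxip (MondoA, a glucose-sensing factor) was called, with medians of 39.4 and 11.7 CPM (1.60). Myc, a known activator of glycolysis genes, had medians of 142 and 111 CPM and differed by 0.62, less than its SD of 2.15 and 2.82.

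Basal keratins had higher medians in the high cells, with differences below the SD of the low cells. Krt14, a keratin of basal layers, ranged from 1427 to 7741 CPM in the high cells (median 5064) and from 17.9 to 5766 CPM in the low cells (median 2407), a difference of 1.41, and 8 high cells exceeded all low cells. Krt5, its partner keratin, had medians of 3509 and 1882 CPM (0.52), and Trp63, the p63 gene that holds HBCs in the basal state, had 243 and 133 CPM (0.98). Of 20 tested basal genes 4 were called higher, among them Krt14 and Krt17, a keratin of wounded and growing epithelia, with medians of 5138 and 2699 CPM (1.24). One was called lower, Fzd7, a Wnt receptor (-1.03), which is named here after its value was seen.

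Squamous and wound genes had the same median to 2 decimals as the HIF targets. Of 30 listed genes 20 were tested, 10 were called higher and none lower, with a median difference of 1.25. Krt16, a keratin of wounded epidermis, ranged from 1.31 to 877 CPM in the high cells (median 69.0) and from 0.104 to 389 CPM in the low cells (median 6.87), a difference of 2.30, and 20 of 24 high cells were above the low-cell median. Tgm1, which cross-links the cornified envelope, was under 2 CPM in 18 low, 24 middle and 8 high cells and differed by 2.63. Sprr2a1 and Sprr2a2, near-identical envelope genes whose reads cannot be kept apart, had the highest single value of both groups in a low cell, 29851 CPM for Sprr2a1, against a highest value of 17083 CPM in the high cells, with medians of 755 and 112 CPM. The list mean ran from 3.16 to 7.94 in the high and from 2.12 to 4.82 in the low cells, and its Spearman's rho with the score over 96 cells was 0.39. When the score was taken over both glycolysis lists, the median of the squamous genes was 0.31, against 1.06 for the HIF targets.

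Xenobiotic enzymes of olfactory and airway epithelium were the list with the lowest median. Of 26 listed genes 21 were tested, 12 were called lower, none higher, and 20 were below 0, with a median difference of -1.09. Adh7, an alcohol and retinol dehydrogenase, ranged from 1.65 to 1973 CPM in the high cells (median 147) and from 2.74 to 2841 CPM in the low cells (median 810.1), a difference of -2.17, and 20 of 24 high cells were below the low-cell median. Cyp2f2, a cytochrome P450 of club cells and olfactory glands, was under 2 CPM in all 24 high cells and in 16 low cells, while 8 low cells exceeded every high cell, up to 1279 CPM (-2.23). Ugt1a6a, which shares exons with its neighbours in the Ugt1a cluster so that its reads are uncertain, had medians of 21.7 and 47.0 CPM (-1.86). Aqp4, a water channel, had medians of 36.9 and 79.9 CPM (-1.43). The list median was -0.70 when set 2 of the 12 sets of 8 cells described last was left out and the groups were drawn anew. In each of the 4 named genes the groups overlapped, and the difference was smaller than the SD of at least 1 group.

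None of 17 antioxidant genes was called. The leading ones were Keap1 (-0.94), the sensor that holds Nrf2 back, and the Nrf2 targets Gclm (-0.92), Gclc (-0.86) and Nqo1 (-0.77). Gclm, the regulatory subunit of glutathione synthesis, ranged from 36.4 to 1559 CPM in the high cells (median 627) and from 414 to 2926 CPM in the low cells (median 1145), and 6 low cells exceeded every high cell. The median of the list was -0.11 and turned to 0.22 with spike-in size factors.

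The 30 mitosis and G2 genes had a median difference of 0.55 with 2 called higher, Aurkb, a mitotic kinase, with medians of 87.0 and 12.8 CPM (1.69), and Cenpe, a kinetochore motor, with 86.7 and 39.3 CPM (1.15). That median fell to 0.015 when set 10 was left out and the groups were drawn anew. For Aurkb, 5 high, 9 middle and 11 low cells were under 2 CPM. When each set was left out in turn, the lowest value of Aurkb was 0.80, below a call. Its mean difference between the higher and the lower sister was -0.005. The mean of the list ran from 1.73 to 8.06 in the high cells (median 5.81) and from 1.14 to 7.97 in the low cells (median 5.27), and its Spearman's rho with the score was 0.08 over 96 cells. The 30 S phase genes had a median difference of 0.25, with Cdc45 (1.85), Ccne1 (1.18) and Mcm5 (1.07) called higher. When each set was left out in turn, that median ran from -0.011 to 0.43. The lowest values were then 0.99 for Cdc45, 0.395 for Ccne1 and 0.43 for Mcm5, all below a call. Between the higher and the lower sister of a pair, the median of the list was -0.16, with 12 of 30 genes above 0. Stress and immediate early genes included 6 called higher of 21, led by Ier3 (1.56), Fosl1 (1.43) and Cdkn1a (1.24), the p21 cell cycle inhibitor, whose medians were 144 CPM in the high and 70.1 CPM in the low cells. The median of these 21 genes was 0.53, with 12 above 0 and 9 below. It ran from 0.10 to 0.58 when each set was left out in turn. The lowest values were then 1.07 for Ier3, 0.72 for Fosl1 and 0.82 for Cdkn1a, so that only Ier3 stayed a call. Between the middle cells split by score, described below, the list median was -0.04.

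**Figure D4:**
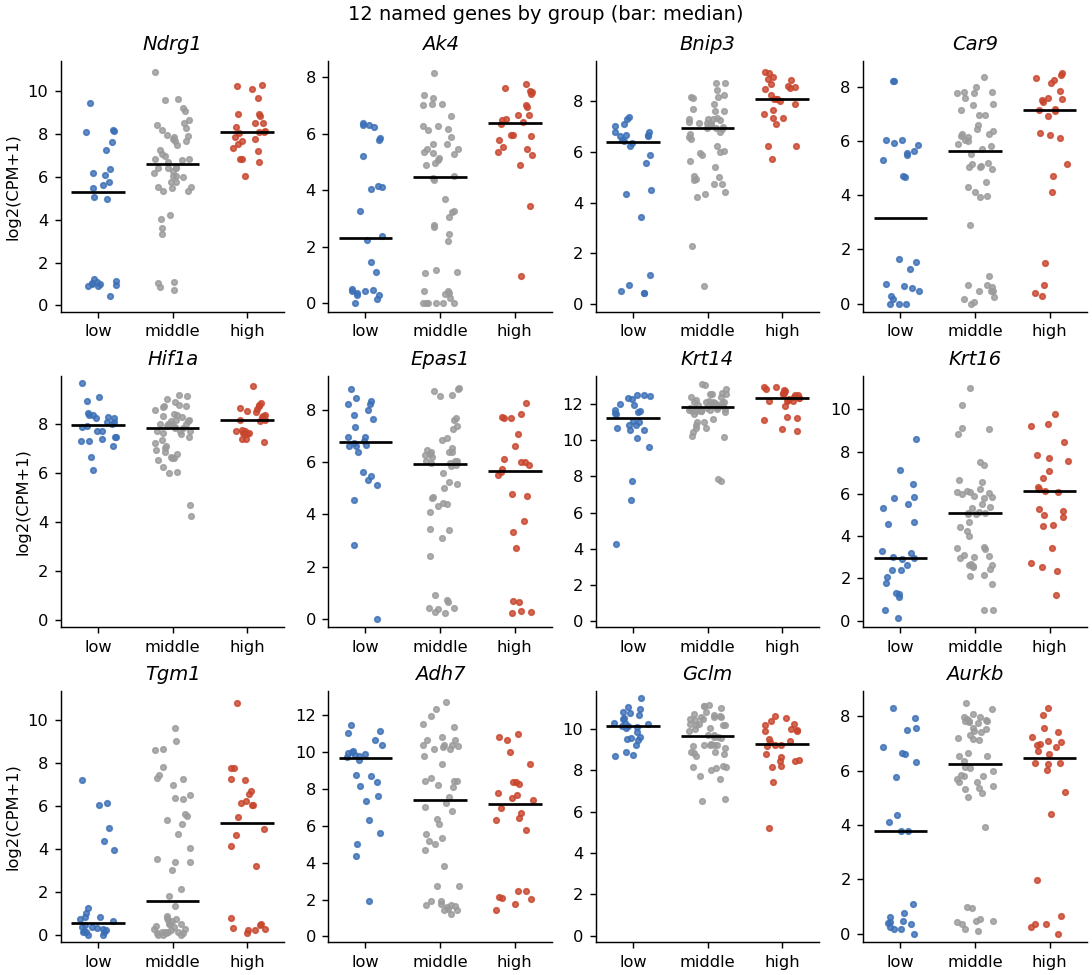
Levels in log2(CPM+1) (y axis) of 12 named genes in the 24 low, 48 middle and 24 high cells (x axis), 1 point per cell, with a bar at the median. Ndrg1 is under 2 CPM in 10 low cells and in no high cell, Hif1a has medians of 250.3 and 288 CPM, and Adh7 spreads from 1.34 to 6743 CPM over all cells.

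Outside the lists, several genes of largest difference had a median near 0 CPM in the low cells. Among genes outside the score with a mean level of 10 CPM or more, Dapk2, a death-associated protein kinase, had a median of 26.0 CPM in the high and 0 CPM in the low cells (2.98), with 13 high cells above all low cells. Upp1, the uridine phosphorylase, had medians of 83.7 and 16.6 CPM (2.82), and 22 of 24 high cells were above the low-cell median. Tnfsf9, a ligand of the tumour necrosis factor family, had 45.5 and 0.414 CPM (2.78), and Plet1, an epithelial surface protein, had 79.6 and 1.03 CPM (2.77). Tmem18 (2.82) and Ppp4r1 (2.73) were the others outside the lists, and the list members Ndrg1, Ak4, Bnip3, Pfkfb3 and Car9, described above, were also among the 12 largest. Between the middle cells split by score, described below, Tnfsf9 (-0.60), Tmem18 (-0.27), Ppp4r1 (-0.23) and Plet1 (-0.05) were lower in the upper cells. Dapk2 (0.26) and Upp1 (0.43) were higher there.

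On the lower side, Zfp608, a zinc finger gene, gave the clearest order, with 0 to 29.0 CPM in the high cells (median 0.746) and 0 to 87.1 CPM in the low cells (median 32.8), a difference of -2.18 with all 24 high cells below the low-cell median. Fah, the last enzyme of tyrosine breakdown, had medians of 0.109 and 35.9 CPM (-2.46), and Aldh3a2, a fatty aldehyde dehydrogenase, had 2.07 and 37.7 CPM (-2.42). Sftpd, the surfactant protein D gene, was under 2 CPM in 22 high and 11 low cells (-2.46). Mgst1, a microsomal glutathione transferase, had medians of 16.7 and 43.9 CPM (-2.25), and Timp3, a metalloproteinase inhibitor, had 0.231 and 16.0 CPM (-2.23). The remaining ones were Zfp68 (-2.47), Tmem176b (-2.28), Slc22a15 (-2.15) and Ccdc3 (-2.002) beside Cyp2f2 and Adh7. Between the middle cells split by score, described below, Zfp608 ran the other way and was higher in the upper cells (1.40). So were Ccdc3 (0.98), Tmem176b (0.83), Sftpd (0.79) and Timp3 (0.31), while the others of these 12 genes were lower there.

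The 48 middle cells, which the contrast did not use, were divided by score into an upper and a lower 24 with a difference in mean score of 0.63, against 2.33 between the high and the low cells. Slc16a3 differed by 2.78 between these cells, Pfkp by 0.60 and the other 4 score genes by 0.04 to 0.23, so that Slc16a3 gave most of the summed difference. Of the 24 HIF targets, 22 were above 0, with a median difference of 0.51, led by Plod1 (1.38), P4ha2 (1.34), Pdk1 (1.01) and Ak4 (0.97). Egln3 differed by 1.63 and Pfkfb3 by 0.98. Of the 21 xenobiotic genes, 20 were below 0, with a median of -0.50. The squamous genes did not keep their direction, with a median of -0.15 and 8 of 20 above 0, and Tgm1 (-0.96) and Krt16 (-0.58) were lower in the upper cells. Over all genes called in the high and low cells, score genes left out, 52.9% of those called higher and 60.5% of those called lower had the same sign among the middle cells, where 49.2% of all tested genes were above 0. That last share is a reference for the genes called higher only, since the same sign is below 0 for those called lower. These values are a description, since sisters of one pair can lie on both sides. Of the middle cells, 11 were also sisters of high cells and 7 were sisters of low cells, so they are not independent of the contrast.

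Sister cells were closer in score than other cells. Of the 48 pairs, 6 had both sisters among the high cells, 8 had both among the low cells, and 1 pair had a sister in each. In 11 pairs a high cell had a middle sister, in 7 a low cell had a middle sister and in 15 both were middle. The median difference of score between sisters was 0.44, against 0.89 between cells of different pairs and 0.87 between such cells of the same set of 8. Pearson's r of the sisters' scores was 0.68 and Spearman's rho 0.67 over 48 pairs, and r was 0.62 over 46 pairs without the 2 farthest from the median. The 6 pairs with both sisters high were 5, 9, 13, 35, 37 and 40, and the 8 with both low were 6, 14, 26, 29, 31, 32, 36 and 39. Slc16a3 was under 1 CPM in both sisters of 6 pairs and in only 1 sister of 9 pairs, and it was at 100 CPM or more in both sisters of 16 pairs.

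Pair 3, the one divided between the groups, had scores of 10.02 and 8.21. Slc16a3 was at 79.7 CPM in the high sister, the lowest level of any high cell, and at 0.489 CPM in the low sister. Tpi1 was at 4197 and 976 CPM, Ndrg1 at 319.8 and 0.978 CPM and Pfkfb3 at 109 and 1.16 CPM, while Ak4 ran the other way at 39.6 and 78.6 CPM. Adh7 was at 4.53 CPM in the high and 428 CPM in the low sister. Over all pairs Adh7 ran the other way. It was higher in the sister of higher score in 31 pairs and lower in 17, with a mean difference of 0.445. The largest distance of score between sisters was 1.96, in pair 4, whose low sister had Pfkp at 0.933 CPM.

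Between the higher and the lower sister of each of the 48 pairs, the mean difference in score was 0.55. Slc16a3 was higher in the higher sister in 39 pairs and lower in 9, Pfkp in 36 and 12 and Slc2a1 in 35 and 13, as the choice of the higher sister by score favours. Among genes not in the score, Tpi1 and Eno1 were higher in 36 pairs and lower in 12, Gpi1 and Pfkl in 33 and 15 and Gapdh in 32 and 16. Eno1b was also higher in 33 pairs and lower in 15, Pgam1 in 32 and 16, Bsg in 31 and 17, and Hk1, Hk2 and Pkm in 30 and 18. Further members of the glycolysis list were nearer to even or ran the other way. Among them, Pfkfb3 was higher in 25 pairs and lower in 23, Slc16a1 in 23 and 25 and Ldhb in 14 and 34. Among HIF targets, Ndrg1 and P4ha1 were higher in 30 pairs and lower in 18 and Bnip3 in 27 and 21. The mean difference of Bnip3 between sisters was nevertheless below 0, at -0.15. Others were even, such as Adm at 24 and 24, or more often lower, such as Plod2 at 23 and 25 and Ankrd37 at 17 and 21. By mean difference between sisters, 18 of the 24 HIF targets were above 0, where 51.8% of all tested genes were, score genes left out. The median over the HIF targets was 0.14 between sisters, over the other glycolysis genes 0.22 and over the xenobiotic genes -0.047. Krt5 was higher in 34 pairs and lower in 14.

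**Figure D5:**
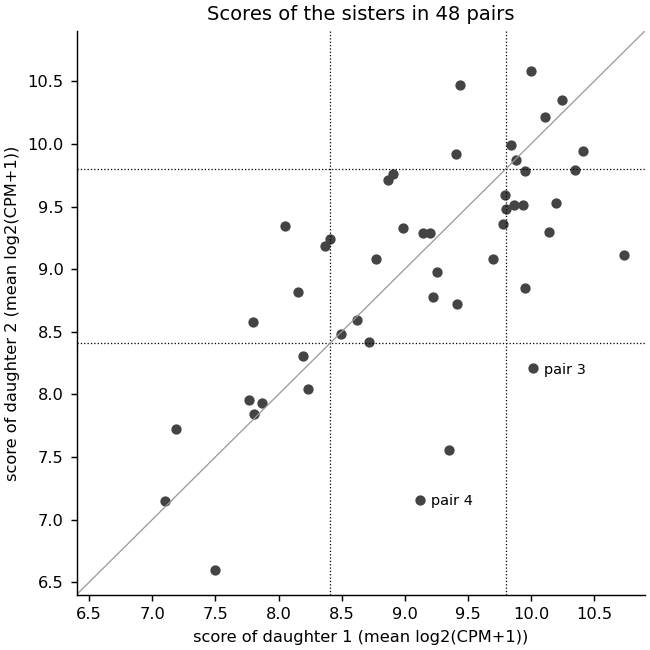
Score of daughter 1 (x axis) against that of daughter 2 (y axis), both in mean log2(CPM+1), for 48 pairs, with dotted lines at the borders of the high and the low cells and a grey line of equal scores. Pairs spread along the line of equal scores, and pair 3 alone lies with 1 sister above the upper and 1 below the lower border.

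The deposited file names place the cells in 12 sets of 8, and what a set stands for was not given in the sources used here. Low cells were gathered in set 8, which held 6 low and no high cells with a median score of 7.82 and 3 of the pairs with both sisters low, 29, 31 and 32. Set 11 also held no high cell, and sets 3 and 5 held no low cell, while sets 2 and 10 held 4 high and 2 low cells each. Comparing the 2 highest with the 2 lowest cells of every set gave a median difference of 1.30 for the HIF targets, 0.48 for the other glycolysis genes, 0.80 for the squamous genes and -0.86 for the xenobiotic genes. Without set 8, 758 genes were called higher and 320 lower.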

How the data were processed

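Per the study's methods, reads of 96 single cells were trimmed with Trimmomatic (0.39), aligned with STAR (2.7.11a) to GRCm38 (Ensembl release 100) with ERCC sequences, and counted per gene with StringTie (2.2.1). The authors deposited a table of read counts and, for each cell, a table of TPM. From the deposited counts, CPM was taken over the rows that are not ERCC, and genes with at least 10 counts in 10% of the cells entered the comparison and are called tested. Differences are of mean log2(CPM+1), which understates changes of low genes, and 1 was the size of a call. Where a symbol had several rows (Aldoa, Atp5o, Ddit3), the row of larger mean count was used. No p-value was computed. The members and lists were chosen with earlier results of these data known. Named were the score genes, members of the glycolysis and HIF lists, up to 4 members of largest difference with a mean CPM of at least 10 in each other list, the 12 largest differences in each direction, and Trp63, Krt5 and Krt14, except that some of these genes are not reported here. In the gene lists, 1 symbol of 40 nuclear respiration genes was not matched. The calculation was tested on simulated data with groups fixed in advance. This check does not show how many calls arise between groups chosen by a measured score. Alternatives covered scaling, pseudocount, filter, group size, the genes of the score and the sets of 8. Python (3.11.15), numpy (2.4.6), scipy (1.17.1), pandas (2.3.3) and matplotlib (3.10.9) were used.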

Additional observations from a re-analysis of the deposited data

How the results depend on the processing

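Counts of called genes depended most on the scaling, the pseudocount and the group size. As reported, the counts were 973 higher and 299 lower. They were 1614 and 162 with spike-in size factors and the groups kept, 835 and 186 with the deposited TPM, 2080 and 791 with a pseudocount of 0.1, 134 and 22 with 10, 2252 and 683 for 12 against 12 cells, 579 and 225 for 32 against 32, 1235 and 161 with a score over both glycolysis lists, and 3498 and 101 with a score and values from spike-in scaling, where the median of all genes was 0.54. The share of calls that were higher was 76.5%, against 90.9% with spike-in size factors, 88.5% with both glycolysis lists and 97.2% with the spike-in score. Without each set of 8 in turn they lay between 758 and 985 and between 282 and 327, with 595 to 872 of the 973 and 190 to 255 of the 299 genes shared, and without a filter they were 973 and 300. Genes shared with the reported calls numbered 579 and 147 without Slc16a3 in the score and 594 and 88 with both glycolysis lists. In the spike-in score the medians of the other glycolysis genes and the squamous genes were 1.14 and 2.26. In 2 comparisons chosen after seeing the data, the medians for middle cells and for higher minus lower sisters were 0.12 and 0.22 for the other glycolysis genes, 0.51 and 0.14 for the HIF targets, -0.15 and 0.20 for the squamous genes, and -0.047 between sisters for the xenobiotic genes. The median for squamous genes was thus reversed among the middle cells. Without each set in turn, list medians were 1.06 to 1.36 for HIF targets, 0.48 to 0.60 for other glycolysis genes, 1.04 to 1.47 for squamous, -1.19 to -0.70 for xenobiotic and 0.015 to 0.68 for mitosis genes. Pcx was reversed at -0.19 with 2 against 2 cells of each set and at -0.057 with at most 1 cell of a pair in a group. Pairs with 1 high and 1 low sister numbered 0 without Slc16a3, with the spike-in score and for 12 against 12 cells, where 2 pairs had both sisters high. The causes were not tested. Of 4260 values of named genes and other lists over all alternatives, 4229 moved by less than 1 SD over cells, 29 moved by more and 2 called values, both of Pcx, changed sign. This SD is wide, so the tally does not show that calls were kept. Cenpe differed by 1.15 with an SD of 2.61 in the high and 3.26 in the low cells. Its lowest value without 1 set was 0.30, that of Ccne1 was 0.395 and that of Aurkb was 0.80, all below a call. Smaller values changed sign too, among them the list medians with spike-in size factors of mitochondrially encoded genes (0.07), nuclear respiration genes (0.17), antioxidant genes (0.22) and pentose phosphate genes (0.23). Of 258 counts and medians of the leading lists, 25 moved and 1 was reversed. No paired analysis was possible because only 1 pair had a sister in each group, and the values between sisters are a description over 48 pairs.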
